A study of Mus musculus with 6 samples.

Results

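Hal and 8 further genes of histidine and carnosine metabolism were followed in adult mouse muscle with and without Dock3. The set holds 9 of the 54393 genes of the deposited table: Hal, Uroc1, Amdhd1 and Ftcd for the breakdown of histidine, Hdc for histamine, and Carns1, Cndp1, Cndp2 and Carnmt1 for the dipeptide carnosine. Hal was selected on its measured values, a near loss in Dock3 KO, so its difference between genotypes is given as a description with no test. The other 8 were listed for their function, with earlier results of these data known. RNA came from the tibialis anterior, a fast muscle on the shin, of adult animals, with 3 muscles labelled WT (titles beginning C57; replicates 1, 3 and 4) and 3 labelled Dock3 KO (replicates 1, 2 and 3). Dock3 encodes an exchange factor that activates the small GTPase Rac. The labels used here name neither the allele nor the background strain of the Dock3 KO mice, nor what both groups share beyond age and tissue. They do not say whether muscles of a group came from separate animals, so p-values measure the spread between these samples.

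Histidine leaves the amino acid pool along several routes. Histidine ammonia-lyase, encoded by Hal, removes its amino group to give urocanate, a step best known from liver and from epidermis, where urocanate absorbs ultraviolet light. Urocanase (Uroc1), imidazolonepropionase (Amdhd1) and formimidoyltransferase cyclodeaminase (Ftcd) then carry the product to glutamate and pass a one-carbon unit to tetrahydrofolate. Histidine decarboxylase (Hdc) makes histamine, the mediator stored by mast cells. Skeletal muscle also joins histidine to beta-alanine through carnosine synthase (Carns1). The product, carnosine, is a buffer and antioxidant of fast fibres, is methylated to anserine by Carnmt1 and is cleaved by the dipeptidases Cndp1 and Cndp2.

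Sequences upstream of the start were available for 6 of the 9 genes in RefSeq promoters of GRCm38.p6. Those of 4 genes are shown because Hal and its neighbour Amdhd1 were the only members whose groups did not overlap, Ftcd acts in the same pathway, and Carnmt1 was the member with the highest level. Amdhd1 was too low to be tested, at 5.30, 0.829 and 0.824 normalized counts in WT. Groups did not overlap in 16.2% of all genes tested. Each run gives the 250 bases before the RefSeq start, 5′ to 3′ on the gene's strand, with capitals for the TATA motif (TATAAA) and the GC-box motif (GGGCGG) on either strand.
Hal (chr10:93488518-93488767, plus strand): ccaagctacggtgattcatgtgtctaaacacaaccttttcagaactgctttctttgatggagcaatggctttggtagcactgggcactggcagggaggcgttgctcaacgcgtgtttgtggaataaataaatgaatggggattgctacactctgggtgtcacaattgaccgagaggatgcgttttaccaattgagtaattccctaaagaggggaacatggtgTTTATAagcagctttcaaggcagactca
Amdhd1 (chr10:93540034-93540283, minus strand): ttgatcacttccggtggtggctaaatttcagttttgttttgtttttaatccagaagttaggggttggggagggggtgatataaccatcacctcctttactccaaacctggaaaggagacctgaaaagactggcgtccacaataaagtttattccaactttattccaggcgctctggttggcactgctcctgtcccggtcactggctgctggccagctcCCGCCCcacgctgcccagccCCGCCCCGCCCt
Ftcd (chr10:76575398-76575647, plus strand): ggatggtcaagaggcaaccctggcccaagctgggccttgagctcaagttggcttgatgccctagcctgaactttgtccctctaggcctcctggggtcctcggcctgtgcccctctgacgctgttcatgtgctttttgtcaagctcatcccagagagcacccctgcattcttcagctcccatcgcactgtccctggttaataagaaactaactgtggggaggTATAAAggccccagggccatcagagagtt
Carnmt1 (chr19:18670509-18670758, plus strand): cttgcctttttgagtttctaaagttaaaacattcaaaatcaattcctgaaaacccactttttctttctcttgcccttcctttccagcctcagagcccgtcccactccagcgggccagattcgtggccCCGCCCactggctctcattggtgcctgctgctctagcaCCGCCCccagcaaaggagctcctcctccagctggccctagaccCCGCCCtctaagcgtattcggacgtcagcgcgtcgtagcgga
The Hal window held 1 match to the TATA motif, on the opposite strand, whose first base lay 28 bases before the start. The Ftcd window held 1 on the gene's own strand, 29 bases before the start. The windows of Uroc1, Amdhd1, Hdc and Carnmt1 held none. Of 32851 RefSeq promoter windows of the same length, 12.4% held this motif. The GC-box motif was present 3 times in Amdhd1, 3 times in Carnmt1 and 1 time in Hdc, was not found in Hal, Uroc1 or Ftcd, and occurred in 32.7% of all windows. The motif CANNTG, the letters of the E-box, was present 3 times in Hal, 1 time each in Uroc1, Ftcd, Hdc and Carnmt1, and 0 times in Amdhd1, against 66.2% of all windows with a match. No match overlapped another in the Hal window, and 2 of the 3 GC-box matches of Amdhd1 share 1 base. These matches describe the letters of the windows only.

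The values are normalized counts per gene. They summed to between 23520223 and 33393950 per sample, which corresponds to roughly 21700000 to 32400000 reads when the most frequent low value (0.775 to 1.52 normalized counts) is taken as 1 read. Dock3 was listed in WT at 169, 161 and 118 normalized counts, and in Dock3 KO at 22.4, 1.78 and 1.54. All 10 markers of skeletal muscle fibres were high in every sample, with Acta1 means of 349877 ± 23480 in WT against 311062 ± 35085 in Dock3 KO (SD, n = 3 each). The RNAs Gm42418 and Lars2 took 17.9% and 20.3% of the summed counts in Dock3 KO replicates 1 and 2 and 3.00% to 3.64% in the other 4 samples. In bulk muscle, fewer cells of a type and less RNA per cell cannot be told apart.

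Hal (ENSMUSG00000020017) is a protein-coding gene with 4 annotated transcripts on chromosome 10 of GRCm38 (plus strand, 93488768 to 93519304 by GENCODE M21). No other annotated gene overlaps it, and no near-identical transcript was found elsewhere. It was listed in WT at 375, 721 and 566 normalized counts (replicates 1, 3 and 4, the order used throughout), and in Dock3 KO at 2.05, 1.11 and 2.95 (replicates 1, 2 and 3). All 3 Dock3 KO samples were therefore far below every WT sample, at 0.370%, 0.201% and 0.533% of the WT mean. WT had a mean of 554 ± 173 and Dock3 KO one of 2.04 ± 0.920 (SD, n = 3 each). On the scale of log2(normalized count + 1), used for every log2 value here, the difference was -7.51. The Dock3 KO values correspond to about 1.46, 0.731 and 3.81 reads, so the size of the ratio rests on a handful of reads. The decrease of Hal ranked 10th among all 16031 genes tested and 2nd among the 13437 protein-coding genes. For comparison, 147 of 16031 genes tested (0.917%) had a log2 difference of -2 or lower.

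The Dock3 KO samples differed in Dock3 and in the Gm42418 and Lars2 share, and Hal was low in each of them. Dock3 KO replicate 1 kept Dock3 at 14.98% of the WT mean, and its Hal value lay between those of the other Dock3 KO samples. In Dock3 KO replicate 3, where the Gm42418 and Lars2 share was 3.64%, Hal stood at 0.533% of the WT mean. Values of so few reads cannot be put in order. A link of Hal to the Dock3 value or to that share was not tested. In WT, 86.2% of all genes with a mean above 0 had a lower WT mean than Hal.

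**Figure D1:**
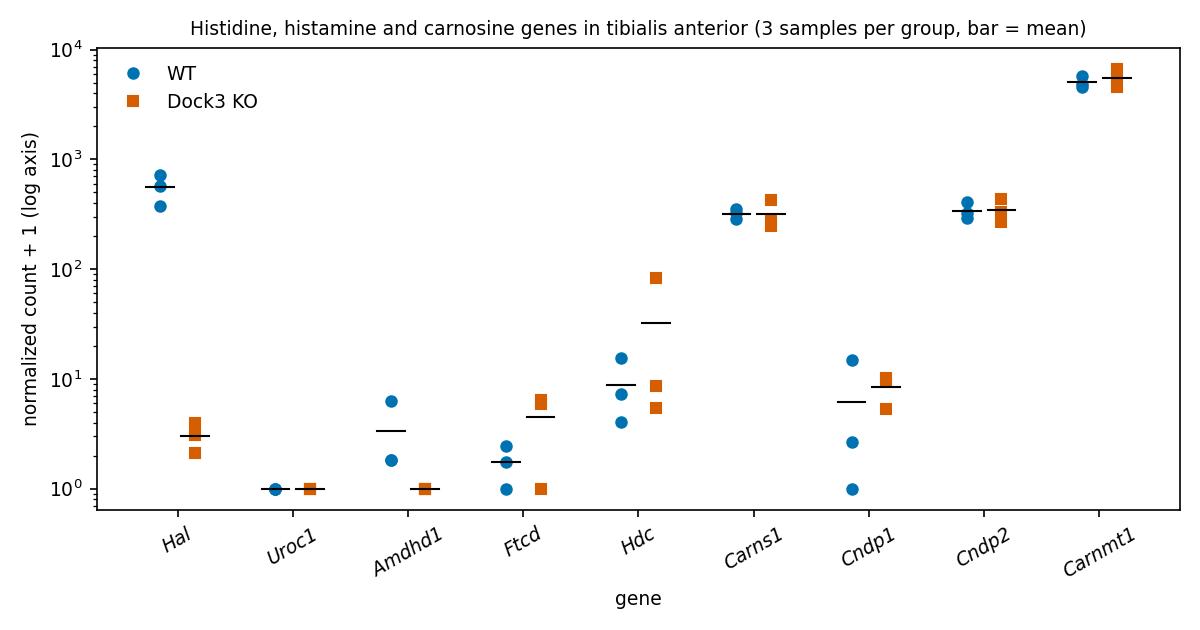
Normalized count + 1 on a log axis for the 9 genes, with circles for WT samples, squares for Dock3 KO samples and a bar at each group's mean. Hal lies between 375 and 721 in WT and between 1.11 and 2.95 in Dock3 KO, while the points of Carns1, Cndp2 and Carnmt1 overlap between genotypes.

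Other tissues that use histidase were followed through their markers. Of 10 keratinocyte markers, the basal keratins Krt5 and Krt14 did not exceed 2.47 and 2.25 normalized counts in any sample, below the WT values of Hal. Krt1, Krt15, Lor, Flg and Ivl did not exceed 6.89. Krt10 lay between 15.7 and 40.0 over all samples. Sbsn was listed in WT at 0, 31.2 and 33.4, and in Dock3 KO at 11.1, 3.94 and 10.7. The part of skin cells in the Hal values was not tested. The list summed to 248 to 296 in WT and 198 to 305 in Dock3 KO, most of it from Trp63, at 224 ± 49.4 and 226 ± 62.8 (SD, n = 3 each). The 10 hepatocyte markers summed to 22.9 to 55.5 in WT and 21.7 to 30.4 in Dock3 KO, and albumin (Alb) accounted for a mean of 17.9 and 16.2. Neither list's sum separated the genotypes.

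The 3 enzymes that follow histidase were close to the limit of detection in both genotypes. Uroc1 was listed at 0 in all 6 samples. Amdhd1 was listed in WT at 5.30, 0.829 and 0.824, and at 0 in each Dock3 KO sample. The groups of Amdhd1 did not overlap, but the WT values correspond to about 5.98 reads in replicate 1 and a single read in each of the others. Ftcd was listed in WT at 0, 1.47 and 0.744, and in Dock3 KO at 4.96, 0 and 5.45, with overlapping groups. These 3 genes and Cndp1 had means under 10 normalized counts and were not tested, so 5 of the 9 members, Hal included, passed the filter on low values. Per kilobase of exon, the mean WT level of Hal was 99.9 ± 31.2 normalized counts (SD, n = 3), and the mean levels of the 3 later enzymes were 0 to 0.958.

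Of the 4 members other than Hal that were tested, 0 were past the threshold of 0.05 after adjustment and 0 had an unadjusted p under 0.05 (limma, Benjamini-Hochberg), against 1.03% and 10.5% of all 16031 genes. In 0 of the 4 did the genotypes not overlap, against 16.2% of all genes tested. Carns1, which builds carnosine, was listed in WT at 322, 349 and 283 normalized counts, and in Dock3 KO at 424, 247 and 274. The WT values lay inside the Dock3 KO range. Its log2 difference was -0.05, with a 95% interval from -0.53 to 0.43 and a limma adjusted p of 0.969. Carns1 overlaps AC109138.8 on the same strand and Gm17552 on the other.

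Cndp2, the cytosolic dipeptidase, was listed in WT at 290, 408 and 323, and in Dock3 KO at 266, 327 and 434. Its log2 difference was -0.01 (95% interval -0.48 to 0.47, limma adjusted p 0.997). Cndp1, the other dipeptidase that cleaves carnosine, was listed in WT at 0, 13.7 and 1.63, and in Dock3 KO at 4.30, 8.76 and 9.22, with overlapping groups. Within each sample, the ratio of Cndp2 to Carns1 per kilobase was 0.959 to 1.24 in WT and 0.667 to 1.69 in Dock3 KO. The WT ratios lay within the Dock3 KO range.

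Carnmt1, the methyltransferase that turns carnosine into anserine, was the most abundant member. It was listed in WT at 4844, 4562 and 5756, and in Dock3 KO at 6684, 5415 and 4543. The groups overlapped, with a log2 difference of 0.12 (95% interval -0.24 to 0.49, limma adjusted p 0.871). Gm8116 shares 99.8% identity with Carnmt1 over 1201 aligned bases and had a mean of 131 in WT against 145 in Dock3 KO, and a second near-identical copy, Gm7622, had means under 1 normalized count. Values of Carnmt1 are uncertain by as much as reads could be assigned to these copies. Its level per kilobase was 14.1, 12.3 and 19.1 times that of Carns1 in WT replicates 1, 3 and 4, and 14.8, 20.7 and 15.6 times in Dock3 KO.

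Per kilobase of exon in WT, Carnmt1 stood highest at 1051 ± 130 normalized counts. Hal at 99.9 ± 31.2, Cndp2 at 80.1 ± 14.3 and Carns1 at 70.3 ± 7.39 followed, and among these 3 neighbours in the order did not differ beyond their spread. Hdc at 1.23 ± 0.912, Amdhd1 at 0.958 ± 1.07, Cndp1 at 0.874 ± 1.28 and Ftcd at 0.231 ± 0.230 could not be told apart either, and Uroc1 was listed at 0 (SD, n = 3 each). In Dock3 KO, Carnmt1 (1154 ± 224), Cndp2 (80.6 ± 20.03) and Carns1 (69.6 ± 21.2) were the 3 highest per kilobase. The mean of Hal, at 0.368 ± 0.166, then stood below those of Hdc, Cndp1 and Ftcd (4.90 ± 6.84, 1.27 ± 0.464 and 1.09 ± 0.945; SD, n = 3 each). The spreads of Hdc and Ftcd reached the level of Hal, so Hal could not be told apart from these genes.

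Hdc was set apart by 1 sample. It was listed in WT at 14.3, 6.25 and 3.03 normalized counts, and in Dock3 KO at 7.66, 81.7 and 4.45. Only Dock3 KO replicate 2 was high, and the other Dock3 KO values lay inside the WT range. Its log2 difference was 1.04 (standard error 0.999, 95% interval -1.19 to 3.27, limma adjusted p 0.794). The direction turned with the replicate number as a block (-0.62) and with log2 Gm42418 as a covariate (-0.81). The block fit compares only replicates 1 and 3, the numbers found in both genotypes, so the high sample does not enter it. Gm42418 was itself highest in that sample, so neither turn is separate from its 1 high value. With 1 sample left out, the difference ran from 0.58 (without WT replicate 4) to 1.81 (without Dock3 KO replicate 3). Without Dock3 KO replicate 2 the mean of Hdc fell under 10 and it was not tested.

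Mast cells, the best known source of Hdc, were followed with 10 markers. Their sum was 553, 868 and 762 in WT and 647, 617 and 572 in Dock3 KO, so the sample with high Hdc had a sum between those of the other Dock3 KO samples. In that sample Mrgprb1, a mast cell receptor, and Ms4a2, the beta chain of the IgE receptor, were the highest of the 6 samples, at 55.6 and 14.2. Tpsab1 and Fcer1a, the alpha chain of that receptor, were the lowest, at 5.21 and 1.41, and the other 6 markers lay within the range of the other 5 samples. Of the 8 mast cell markers tested, 1 passed the threshold, against 1.03% of all genes tested. This was Tpsab1, a mast cell tryptase, named after its values were seen. It was listed in WT at 42.5, 101 and 56.2, and in Dock3 KO at 10.04, 5.21 and 7.38, and it fell by 2.93 on the log2 scale (standard error 0.461, limma adjusted p 0.0138). Its Dock3 KO mean of 7.54 was under the filter of 10, which it passed through WT (mean 66.6). Its difference is therefore given as a description and supports nothing about mast cells. The related tryptase Tpsb2 had means of 98.7 ± 23.4 and 88.8 ± 18.0 (SD, n = 3 each). The part of mast cells in the Hdc values was not tested.

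**Figure D2:**
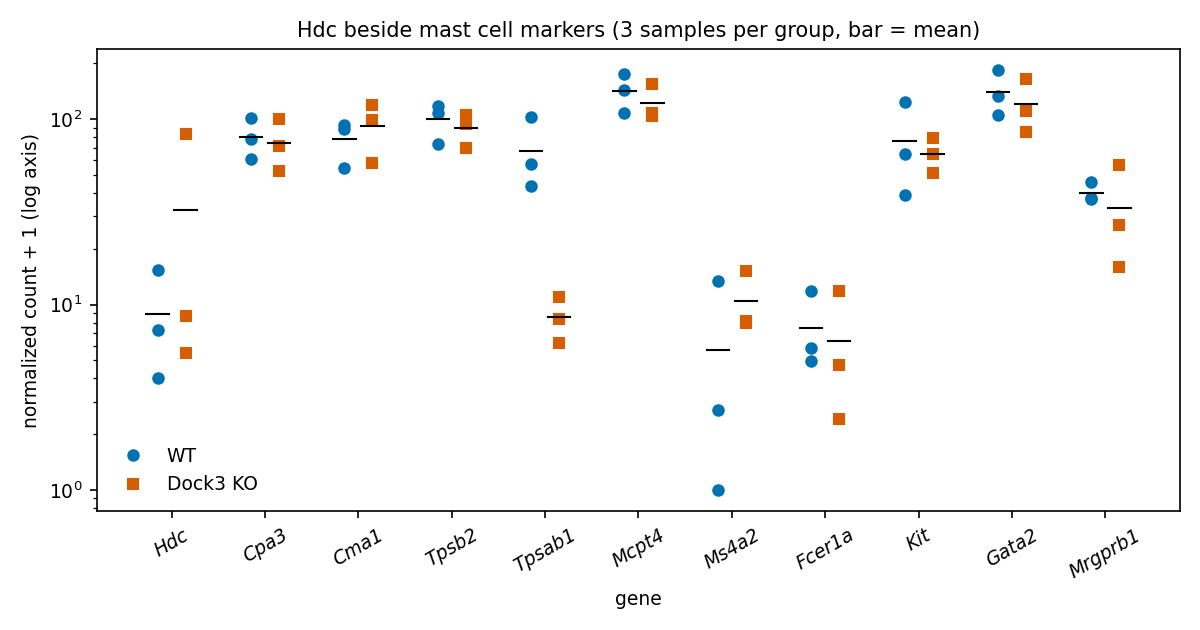
Normalized count + 1 on a log axis for Hdc and 10 mast cell markers, with circles for WT, squares for Dock3 KO and a bar at each mean. Hdc has 1 high point, at 81.7 in Dock3 KO replicate 2, and Tpsab1 is the marker whose groups are apart.

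The stretch of chromosome 10 around Hal holds another member and several active genes. Amdhd1 lies 4.03 kb beyond the end of Hal on the other strand, and Lta4h, which encodes leukotriene A4 hydrolase, ends 3.89 kb before its start. Of 28 other genes in the table within 500 kb, 9 were tested and 1 passed the threshold (limma with Benjamini-Hochberg adjustment), against 1.03% of all genes tested. Lta4h was listed in WT at 310, 318 and 349, and in Dock3 KO at 337, 394 and 315 (log2 difference 0.09, 95% interval -0.26 to 0.44, limma adjusted p 0.909). Within 200 kb, the log2 differences of Elk3, an ETS transcription factor, Snrpf, a core spliceosome protein, and Ntn4, a netrin of basement membranes, were -0.09, -0.0002 and 0.17. Over the 8 tested genes that did not pass, log2 differences ran from -0.09 to 0.25 and limma adjusted p-values were 0.795 or more.

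The gene that passed was Usp44, a deubiquitinase known from the mitotic checkpoint, which starts 312 kb beyond the end of Hal and is named after its values were seen. It was listed in WT at 0, 0.838 and 0.829 normalized counts, and in Dock3 KO at 20.7, 22.7 and 23.4. All Dock3 KO samples were above all WT samples, where Usp44 stood at no more than about 1 read. Its mean of 11.4 over the 6 samples was close to the filter of 10, which it passed only through the Dock3 KO group (mean 22.3, against 0.556 in WT). A gene that passes in this way has to differ, so its log2 difference of 3.95 (standard error 0.743, limma adjusted p 0.0389) is given as a description and supports nothing about the region. Over the alternatives that tested it, its adjusted p ranged from 0.00295 to 0.447 (limma). The call was lost without WT replicate 3 (adjusted p 0.0789) or WT replicate 4 (0.0761), and without any 1 Dock3 KO sample its mean was below the filter (limma with Benjamini-Hochberg adjustment).

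**Figure D3:**
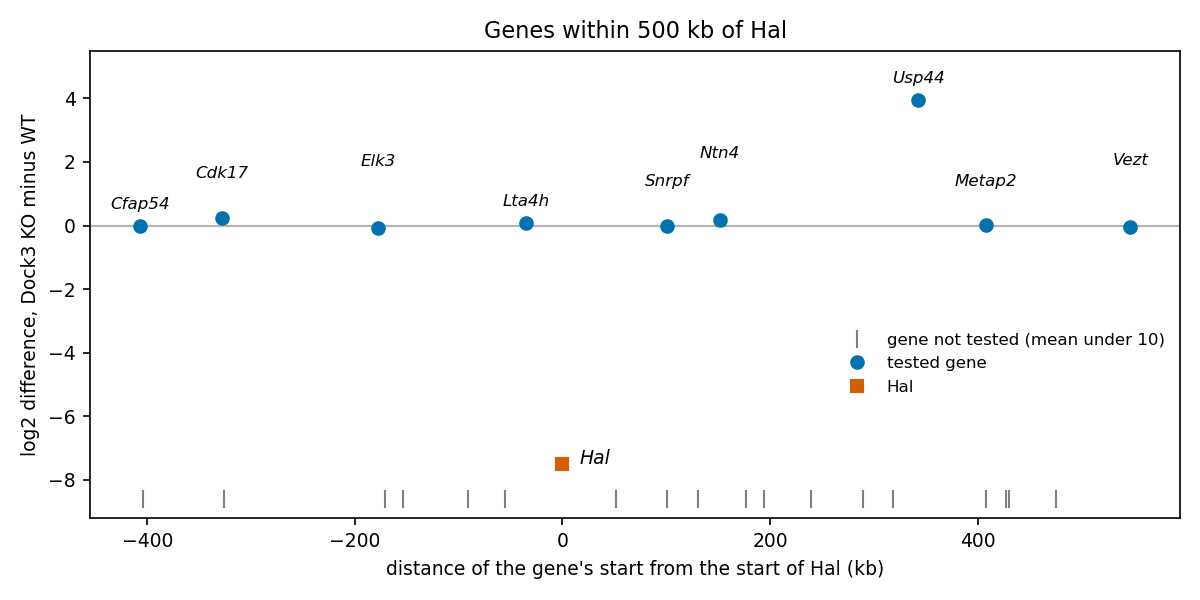
Log2 difference (Dock3 KO minus WT) of Hal and of the 9 tested genes within 500 kb, against the distance of each gene's start from that of Hal in kilobases, with grey ticks for genes that were not tested. Hal lies at -7.51, Usp44 at 3.95 and the other 8 genes between -0.09 and 0.25.

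Genes with the pattern most like Hal were sought among the 146 other genes with a log2 difference of -2 or lower, by Pearson's r over the 6 samples on the log2 scale. This r is a description, and it mostly reflects the step between genotypes that chose the candidates. The first 5 were all annotated as pseudogenes on other chromosomes: Gm9825, Olfr369-ps1, Rpl15-ps2, Gm3375 and Gm8210, with r from 0.996 to 0.997. Gm9825 was listed in WT at 142, 284 and 271, and at 0 in every Dock3 KO sample. Rpl15-ps2 was listed in WT at 261, 387 and 395, and in Dock3 KO at 4.19, 1.56 and 6.16. Within WT, Hal and Rpl15-ps2 were both lowest in replicate 1, but Hal was highest in replicate 3 and Rpl15-ps2 in replicate 4. Within Dock3 KO both were lowest in replicate 2, at values near 1 read. Likeness in order is in part built in, because Rpl15-ps2 was picked by its r with Hal over these samples. Near-identical transcripts were found for all 5 of these pseudogenes, among them Rnps1 for Gm9825 and Psmb5 for Gm3375, so their values depend on how shared reads were assigned. None was found for Hal.

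**Figure D4:**
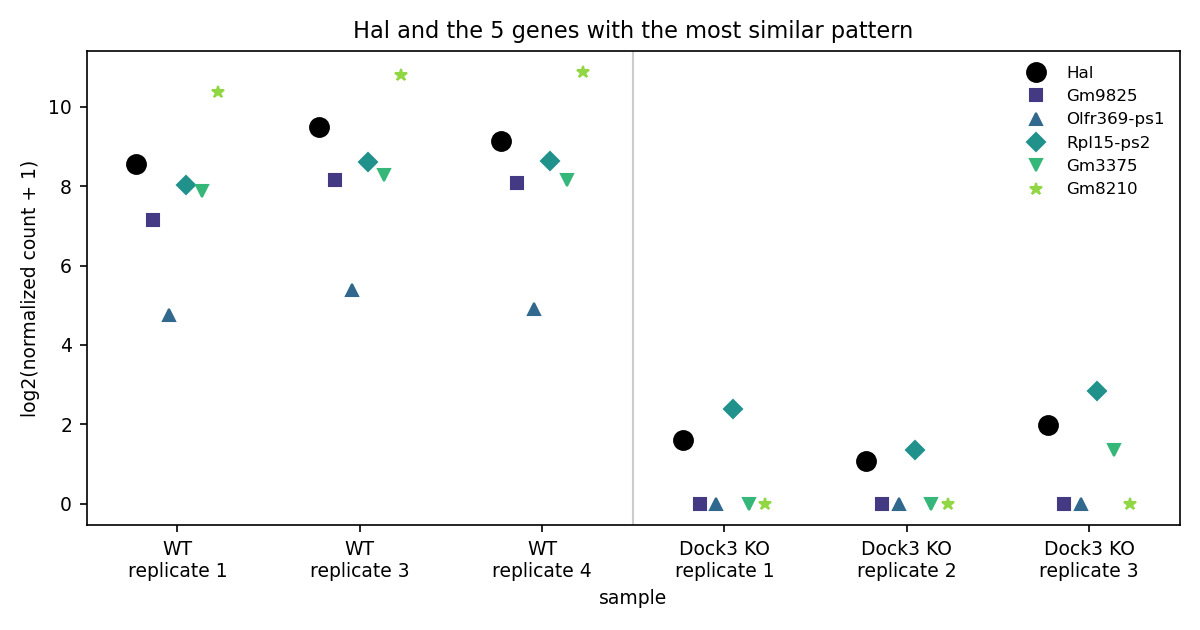
Log2(normalized count + 1) in each of the 6 samples for Hal (large circles) and the 5 pseudogenes with the highest Pearson's r to it. Every gene is high in all 3 WT samples, and in Dock3 KO none exceeds the 6.16 normalized counts of Rpl15-ps2 in replicate 3.

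Genes that supply, move or use histidine, beta-alanine and the products of these enzymes were examined as 6 lists of 64 genes in all, of which 55 were tested. In all, 0 of 55 were past the adjusted threshold (limma, Benjamini-Hochberg), against 1.03% of all genes tested. At an unadjusted p under 0.05 there were 5 of 55 (9.09%), 3 higher and 2 lower in Dock3 KO, against 10.5% of all genes tested. The genotypes did not overlap in 6 of 55 (10.9%), against 16.2%. The median log2 difference was 0.01 over the 55 genes and -0.01 over all genes tested, so these lists as a whole lay near the background.

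The transport list had 11 of 13 genes tested and 0 at an unadjusted p under 0.05, with a median log2 difference of 0.01. Its most abundant gene per length was Slc6a6, the carrier of taurine and beta-alanine, at 3005 ± 230 normalized counts in WT against 2668 ± 201 in Dock3 KO (SD, n = 3 each; limma adjusted p 0.711). The beta-alanine list had 8 of 10 genes tested and a median of 0.13. Aldh6a1, which oxidizes the semialdehyde of beta-alanine breakdown, led it per length, with means of 2866 ± 203 and 3287 ± 530 (SD, n = 3 each). Csad, a decarboxylase of taurine synthesis, was listed in WT at 50.5, 68.6 and 60.5, and in Dock3 KO at 157, 64.4 and 129.5, where replicate 2 lay inside the WT range (log2 difference 0.87, limma adjusted p 0.381).

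The histamine list had 7 of 10 genes tested, 1 of 7 with a difference above 0 and a median of -0.20. Aldh2, an aldehyde dehydrogenase that handles the product of oxidative histamine breakdown, had the highest level per length, at 1604 ± 192 in WT against 1391 ± 136 in Dock3 KO (SD, n = 3 each). Hrh2, the histamine H2 receptor, was listed in WT at 75.2, 80.6 and 81.2, and in Dock3 KO at 57.1, 42.8 and 34.5. Its groups did not overlap, and its log2 difference was -0.83 with a limma adjusted p of 0.291. The list of histidine charging and methylation had all 5 genes tested and a median of 0.05. Setd3, which methylates a histidine of actin, led it per length with means of 1533 ± 37.1 and 1629 ± 178 (SD, n = 3 each).

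The folate list, where the one-carbon unit released by Ftcd would enter, had 15 of 16 genes tested and a median of 0.05. Mthfd1, the trifunctional cytosolic folate enzyme, had the highest level per length, at 616, 601 and 542 in WT and 435, 526 and 472 in Dock3 KO (limma adjusted p 0.510). Mthfs, which returns formyl folate to the pool, had a log2 difference of 0.81, and the mitochondrial Aldh1l2 one of -0.62, with limma adjusted p-values of 0.434 and 0.445. Aldh1l1, its cytosolic relative and named after its values were seen, was listed in WT at 145, 174 and 123, and in Dock3 KO at 657, 68.3 and 552. Replicate 2 again lay apart from the other Dock3 KO samples, below the WT range. On the glutamate list, with 9 of 10 genes tested and a median of -0.01, Glul (glutamine synthetase) was the most abundant gene per length, with means of 8481 ± 1787 and 8007 ± 3579 (SD, n = 3 each). Gpt2, the mitochondrial alanine aminotransferase, was listed in WT at 3940, 3409 and 3122, and in Dock3 KO at 4985, 8339 and 6252. All Dock3 KO samples exceeded all WT samples, but the log2 difference of 0.88 (standard error 0.186) had a limma adjusted p of 0.0710. Without Dock3 KO replicate 1 it was 1.06, with an adjusted p of 0.0242, and without any other single sample the adjusted p was 0.103 to 0.244 (limma).

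**Figure D5:**
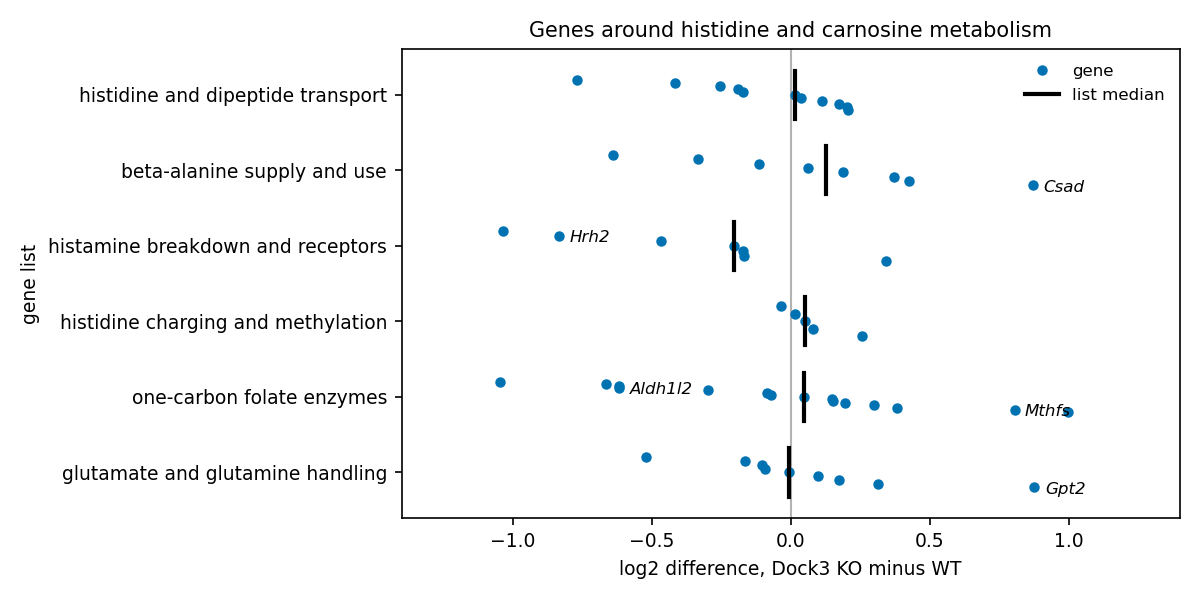
Log2 difference (Dock3 KO minus WT) of each tested gene on the 6 lists, with a bar at each list's median and names for genes with an unadjusted p under 0.05. The medians lie between -0.20 and 0.13, and no gene passed the adjusted threshold.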

How the data were processed

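Libraries were made from ribosome-depleted total RNA with a stranded kit and sequenced as read pairs, per the labels' protocols. The values were deposited by the authors as 1 table, a non-integer signal per gene in normalized counts. The submitters' processing notes name FastQC, Trim Galore 0.4.5, Salmon 0.12.0, DESeq2 1.22.1, R 3.5.3 and the build mm10 (GRCm38), without roles. The annotation, the use of strand and the handling of shared reads are not given in the sources used here. Depth was estimated from the most frequent low value. Between 22.9% and 35.0% of low values were whole multiples of it (within 0.02), so whole reads were not recovered, count tests were not run and values carry no counting interval.

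Symbols were matched to GENCODE M21, where all 54393 identifiers were found. Genes with a mean of at least 10 over the 6 samples were compared on log2(normalized count + 1), which understates changes of low genes, with limma 3.58.1 in R 4.3.3 (eBayes with trend, no covariates) and Benjamini-Hochberg adjustment over all genes, at a threshold of 0.05. The steps were tested on simulated data. Copies were sought with blastn 2.17.0 (at least 95% identity, 100 aligned bases and 50% of the shorter transcript). Python 3.11.15, pandas 2.3.3 and matplotlib 3.10.9 were used for summaries. The members and lists were chosen with earlier results of these data known. Genes named are the members, each list's most abundant gene per length and up to 3 with an unadjusted p under 0.05, tested neighbours of Hal within 200 kb, and the 5 genes most like Hal. Marker genes were singled out after their values were seen. Marker lists of muscle fibres, keratinocytes, hepatocytes, mast cells, macrophages, adipocytes and Schwann cells were also summed. The last 3 had WT sums of 4253 to 4672, 4974 to 6328 and 1803 to 2346 and Dock3 KO sums of 3808 to 4267, 5566 to 6579 and 1848 to 2263. Each had 8 of 8 genes tested and 0 past the adjusted threshold (1.03% of all genes), with 0 macrophage, 2 adipocyte and 1 Schwann cell genes at an unadjusted p under 0.05 (10.5% of all genes; limma). Alternatives changed the pseudocount, filter, scaling, prior variance, covariates and samples.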

Additional observations from a re-analysis of the deposited data

How the results depend on the processing

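Hal stayed far below WT in all 18 alternatives, with log2 differences from -8.07 to -5.50. Because Hal was picked for its near loss in these same samples, these values describe the size of its difference and do not support it. The difference of Hal moved to -8.07 and -5.50 with pseudocounts of 0.1 and 10 and to -6.97 with log2 Gm42418 as covariate. It ranged from -7.76 to -7.27 when 1 sample was left out. No other member passed in any alternative that tested it (limma), with 0 called throughout. The direction of all 4 other tested members turned in at least 1 alternative. With the replicate block Hdc stood at -0.62 and Carns1 at 0.0221, and with the Gm42418 covariate Hdc stood at -0.81, Cndp2 at 0.43 and Carnmt1 at -0.17. Cndp2 was 0.0188 with quantile normalization, and Carnmt1 was -0.15 when samples were rescaled to the same total, which moved the median of all genes to -0.28. Leaving out 1 sample gave ranges of 0.58 to 1.81 for Hdc (not tested without Dock3 KO replicate 2), -0.29 to 0.10 for Carns1, -0.19 to 0.16 for Cndp2 and -0.02 to 0.26 for Carnmt1. Without Dock3 KO replicates 1 and 2, an alternative chosen after seeing the data that assumes the lone Dock3 KO sample varies like WT, Cndp2 was 0.36 and Carnmt1 -0.15.

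The 165 genes called overall became 104 with a prior variance without trend, 57 with the Gm42418 covariate, 56 without Dock3 KO replicates 1 and 2, and 100 to 159 when 1 sample was left out (100 without WT replicate 4, 102 without Dock3 KO replicate 2). Pathway genes numbered 1 instead of 0 without a filter and with a robust prior (Gpt2), with the replicate block (Aldh1l1), and 0 to 1 when 1 sample was left out (Gpt2 without Dock3 KO replicate 1, Aldh1l1 without replicate 2). Neighbours of Hal numbered 0 instead of 1 with a pseudocount of 0.1, a minimum mean of 50, rescaling to the same total, the replicate block, the Gm42418 covariate and without Dock3 KO replicates 1 and 2, and 0 to 1 when 1 sample was left out. Usp44 was not tested with the higher minimum mean or without a Dock3 KO sample. The cause of these shifts was otherwise not tested. Same-numbered samples of the genotypes (replicates 1 and 3) deviated together with correlations of 0.065 and 0.0066 across genes. These values show no pairing by number, but so few samples cannot exclude it. The block fit leaves 1 residual degree of freedom. It takes the genotype difference from replicates 1 and 3 only, so Dock3 KO replicate 2 and WT replicate 4 do not enter it. The Aldh1l1 calls with the block and without Dock3 KO replicate 2 therefore both leave out its low value of 68.3. They are not separate results. The planned edgeR and DESeq2 fits need whole reads and were not run.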
